A study of Mus musculus with 12 samples.

Results

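The paired immunoglobulin-like type 2 receptors (PILR) of the mouse retina were followed together with their ligands and signalling partners as a set of 10 genes, named Pilra, Pilrb1, Pilrb2, Tyrobp, Npdc1, Pianp, Ptpn6, Ptpn11, Syk and Trem2. They were taken by name, as 11 of the 53028 rows of the gene table, in which Trem2 stands 2 times, and as 69 of the 141450 rows of the transcript table. Of the 10 genes, 5 passed the expression filter used for testing across all genes, which asked for 3 or more of the 12 libraries at 1 CPM (counts per M reads, with M for 1000000) or higher. These were Npdc1, Pianp, Ptpn11, Tyrobp and Ptpn6, and the other 5 are described by their values in each library.

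The libraries came from whole retina, 3 in each of 4 groups. They were 12-month-old Pilrb1/2 -/- mice, 12-month-old Pilrb1/2+/+ mice, and Pilrb1/2 -/- and Pilrb1/2+/+ mice at 28 days after birth (P28), called knockout and wild type here. All were of C57BL/6J background: the deletion was made by CRISPR in C57BL/6J zygotes, and carriers were bred back to that strain before use. The series text says that Pilra was deleted along with Pilrb1/2, whereas the sample labels name Pilrb1/2 alone. The labels describe a deletion in every cell of the animal and do not say whether each library is a separate animal, so p-values measure only the spread between these libraries, which may be technical.

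PILRα, the product of Pilra, is an inhibitory receptor of myeloid cells whose ITIM motif recruits the tyrosine phosphatases SHP-1 (Ptpn6) and SHP-2 (Ptpn11). PILRβ, made in the mouse from the near-identical copies Pilrb1 and Pilrb2, is its activating counterpart: it has no signalling motif of its own and pairs with the adaptor DAP12 (Tyrobp), whose ITAM recruits the kinase Syk. Both receptors bind sialylated O-linked sugars on proteins such as NPDC1 and PIANP, which neurons make. TREM2, a lipid-sensing receptor of microglia, signals through the same adaptor.

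The start of each receptor gene is shown because the 3 genes are copies of one another, which limits how far reads can be told apart. Each window of 300 bases ends 50 bases past the annotated start, on the minus strand of chromosome 5 in RefSeq's GRCm38.p6 annotation. They cover chr5:137858000-137858299 for Pilrb1, chr5:137871709-137872008 for Pilrb2 and chr5:137836229-137836528 for Pilra.
Pilrb1: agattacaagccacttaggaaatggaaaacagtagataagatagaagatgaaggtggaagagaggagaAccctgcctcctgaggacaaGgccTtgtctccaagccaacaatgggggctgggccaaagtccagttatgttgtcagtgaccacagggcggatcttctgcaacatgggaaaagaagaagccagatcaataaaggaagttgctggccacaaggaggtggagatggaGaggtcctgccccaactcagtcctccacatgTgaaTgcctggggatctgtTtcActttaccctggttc
Pilrb2: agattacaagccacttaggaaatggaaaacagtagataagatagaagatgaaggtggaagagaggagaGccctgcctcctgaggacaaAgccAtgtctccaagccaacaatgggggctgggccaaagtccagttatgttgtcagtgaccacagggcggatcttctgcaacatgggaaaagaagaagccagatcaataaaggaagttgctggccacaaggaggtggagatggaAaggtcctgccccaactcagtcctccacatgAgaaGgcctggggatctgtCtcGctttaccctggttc
Pilra: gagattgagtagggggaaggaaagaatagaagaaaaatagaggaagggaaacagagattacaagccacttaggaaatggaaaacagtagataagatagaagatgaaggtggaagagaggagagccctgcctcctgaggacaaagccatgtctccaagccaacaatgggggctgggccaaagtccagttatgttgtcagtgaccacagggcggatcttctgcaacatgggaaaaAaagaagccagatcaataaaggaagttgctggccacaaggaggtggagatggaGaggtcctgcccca
Capitals in the first pair mark the bases that differ between Pilrb1 and Pilrb2, and in Pilra those that differ from Pilrb2 in the stretch that aligns. Pilrb1 and Pilrb2 shared 292 of 300 bases (97.3%), with 8 differences. After its first 54 bases, the Pilra window shared 244 of 246 aligned bases (99.2%) with Pilrb2 and 242 with Pilrb1. The letters GAGGAA, a core that the myeloid factor PU.1 can bind, searched on both strands, were found 1 time in the Pilra window and not in either Pilrb window. They stand in 28.3% of the 32851 promoter windows of that table.

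Sharing was also counted over the transcripts of the 3 receptors. Of the 31-base words in the Pilrb1 transcripts, 51.4% occur in no other gene and 42.8% are shared with Pilrb2. For Pilrb2 the share of words of its own was 53.2%, and for Pilra it was 85.8%. In GRCm38 the 3 genes lie side by side on the minus strand of chromosome 5, Pilra at 137821952 to 137836281, Pilrb1 at 137852147 to 137858106 and Pilrb2 at 137865827 to 137871815.

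Read depth, read back from the value that 1 read takes in the transcript table, was 17.2 to 21.0 M reads in 12-month knockout, 22.4 to 26.1 M in 12-month wild type, 14.1 to 22.1 M in P28 knockout and 19.4 to 24.9 M in P28 wild type. A count of 3 reads, the floor used here for counting error alone, was 0.109 to 0.190 CPM. By Xist, 2 of 3 12-month wild-type and 2 of 3 P28 knockout libraries were female and the other 8 were not, so sex differs between the genotypes at each age. The label of whole retina was met by the 10 rod markers, whose sum in CPM lay between 23207 and 30623 in the 12-month knockout libraries and between 38385 and 45947 in wild-type ones of that age. In P28 knockout libraries it lay between 23609 and 30037, and in P28 wild-type libraries between 34154 and 45774. The part of sex and of rod content in the results that follow was not tested, except where a value with a sex term is given. Lens genes summed to 4992 CPM in P28 knockout library 2 and 1802 CPM in P28 wild-type library 3, against 711 CPM or less in the other 10.

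Set per kilobase of transcript so that genes can be compared, the 10 genes formed 3 tiers. Summed over transcripts and averaged over the 12 libraries, the phosphatase gene Ptpn11 stood at 19.98 RPKM (reads per kilobase of transcript per M reads), and the ligands Npdc1 and Pianp at 15.4 and 7.64 RPKM. Tyrobp followed at 1.54 RPKM and Ptpn6 at 0.442 RPKM. Each of the equal Trem2 rows stood at 0.183 RPKM, Pilra at 0.153 RPKM and Syk at 0.0903 RPKM. Pilrb1 and Pilrb2 were at 0.0102 and 0.00367 RPKM.

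**Figure D1:**
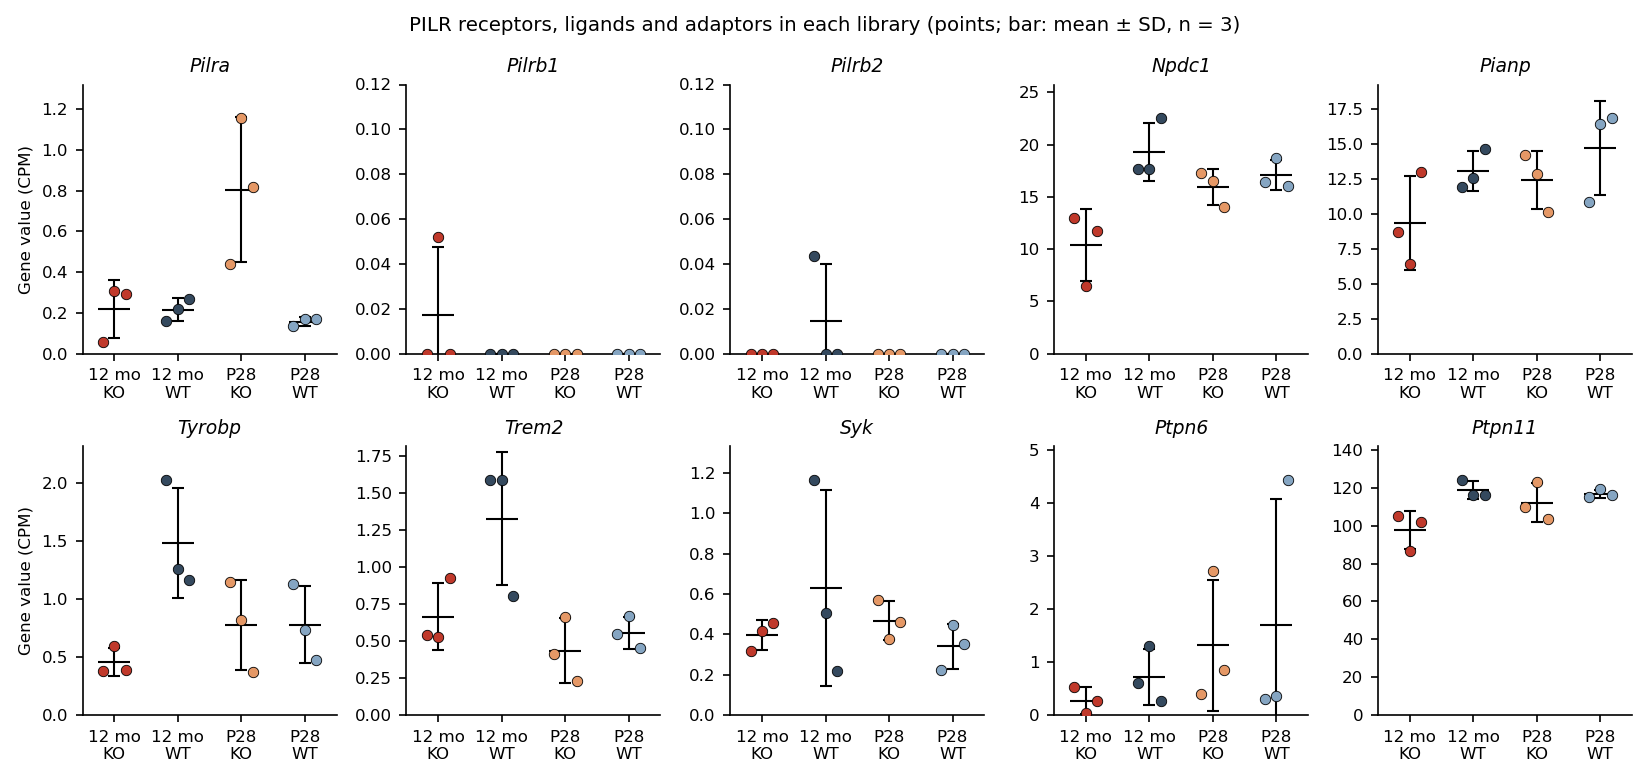
Deposited gene values (CPM, linear axes that differ between panels) of the 10 genes in each library, grouped as 12-month knockout, 12-month wild type, P28 knockout and P28 wild type; points are libraries and bars the mean ± SD of 3. Npdc1, Tyrobp and Ptpn11 lie below wild type in all 3 knockout libraries at 12 months, and for Trem2 1 of its 2 equal rows is drawn.

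The deleted receptors could not check the genotype labels, because they were near 0 in wild type as well. Pilrb1 was above 0 in 1 of 12 libraries, a 12-month knockout library at 0.0520 CPM, which is 1 read in a transcript with a retained intron. Pilrb2 was above 0 in 1 library, a 12-month wild-type library at 0.0436 CPM, also 1 read. Both values are under the floor, so no fold change is given and the genotypes rest on the labels.

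Pilra, the inhibitory receptor that the series text lists as deleted, was read in all 12 libraries. Its values were 0.0556, 0.309 and 0.293 CPM in 12-month knockout, 0.159, 0.221 and 0.268 CPM in 12-month wild type, 0.441, 1.16 and 0.819 CPM in P28 knockout and 0.133, 0.167 and 0.170 CPM in P28 wild type. The P28 knockout libraries lay above the other 9, where 10.5% of all tested genes had every P28 knockout library above every P28 wild-type one, and the 12-month groups overlapped. At P28 the difference of means, knockout minus wild type, was 0.648 CPM with a two-sided exact permutation p of 0.1, the smallest that 3 against 3 libraries can give. At 12 months it was 0.00309 CPM (exact permutation p = 1). Over both ages it was 0.326 CPM (exact permutation p = 0.05). Adjusted over the 18 such tests of Pilra, Syk and Trem2, the values at P28 and over both ages were 0.3.

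These Pilra values rest on few reads. The transcript table holds 12.1, 11.2 and 11.1 estimated reads in P28 knockout and 4.08, 4.06 and 4.06 in P28 wild type, and 87.7% of all Pilra reads fall in the coding form Pilra-201. A form with a retained intron, Pilra-203, held 0, 3.22 and 2.02 reads in P28 knockout and at most 0.133 reads in a P28 wild-type library. Per M reads, the difference over both ages was 0.263 (exact permutation p = 0.02, adjusted 0.3). Of the Pilra words, 13.99% lie opposite Zcwpw1, a histone reader gene that overlaps its 3′ end and stood at 12.8 ± 1.51 CPM in P28 knockout and 13.3 ± 1.14 CPM in P28 wild type (SD, n = 3 each). The strand setting used in counting is not given in the sources used here, so reads of the overlap cannot be assigned.

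Npdc1, a neuronal membrane protein and PILR ligand, fell in 12-month knockout retinas. It stood at 12.99, 6.48 and 11.7 CPM in 12-month knockout and at 17.7, 17.7 and 22.5 CPM in 12-month wild type. All 3 knockout libraries were below all 3 wild-type ones, as were the libraries of 32.2% of all tested genes, and library 2 was the lowest of the series. The fold change on the log2(CPM + 1) scale was -0.87 ± 0.20 (SE), with a limma adjusted p of 0.00644 over 16486 genes. At P28 the groups overlapped, with 17.3, 16.5 and 14.1 CPM in knockout and 16.5, 18.7 and 16.0 CPM in wild type, and the fold change was -0.09 ± 0.20 (adjusted p = 0.828). In a bulk sample, fewer cells of a type and less RNA per cell cannot be told apart.

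Of the 5 tested members, 3 were called at 12 months (limma, adjusted p under 0.05), all lower in knockout, in a comparison that called 39.6% of all tested genes and 23.5% as lower. Among these 3, Tyrobp passed the filter with the help of the 12-month wild-type libraries, where it was high. Its call is therefore no independent support for that direction. At P28 none of the 5 was called, against 1.49% of all tested genes, and none had an unadjusted p under 0.05. The members' median fold change was -0.49 at 12 months and -0.06 at P28, beside -0.03 and -0.01 over all tested genes.

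Pianp, a PILR ligand of neurons, was lower on average in knockout at 12 months but did not pass the test on gene values. It stood at 8.69, 6.41 and 13.01 CPM in 12-month knockout and 12.0, 12.6 and 14.7 CPM in 12-month wild type. The groups overlapped through knockout library 3. The fold change was -0.49 ± 0.22 (limma adjusted p = 0.101), and -0.22 ± 0.22 at P28 (adjusted p = 0.618), where values were 14.2, 12.9 and 10.2 CPM in knockout and 10.8, 16.5 and 16.9 CPM in wild type. Its reads were 155, 114 and 194 in 12-month knockout and 386, 342 and 515 in 12-month wild type, whose libraries were also deeper. Scaled to 9.81, 6.26 and 11.3 per M in knockout and 16.5, 14.9 and 18.7 per M in wild type, they gave -0.84 ± 0.18 (limma adjusted p = 0.00413), a setting added after the data were seen.

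The annotated forms of the ligands differed in how much RNA they held. Only 9.87% of Npdc1 reads were in protein-coding forms and 90.1% were in forms annotated as processed transcripts, led by Npdc1-208 with 38.8%. Pianp was read in coding forms alone, with 57.3% in Pianp-207 and 38.0% in Pianp-206. Of the Npdc1 words, 14.04% are shared with the overlapping ectonucleotidase gene Entpd2, which stood at 0.213 to 1.34 CPM.

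At 12 months, 5 of the 15 member transcripts tested were called lower in knockout. Of all 46931 transcripts tested, 17.1% were called and 10.6% were lower. Pianp-207 stood at 1.97, 2.61 and 2.80 RPKM in 12-month knockout and 4.77, 4.36 and 4.68 RPKM in 12-month wild type. The Pianp-207 fold change on the log2(RPKM + 0.5) scale was -0.79 ± 0.17 (limma adjusted p = 0.0157). This call was lost in 2 of the 12 fits that left out 1 library (adjusted p up to 0.0651). Pianp-206, at 2.20, 0.280 and 2.03 RPKM in knockout and 2.58, 2.25 and 3.49 RPKM in wild type, was not called (-0.89 ± 0.41, adjusted p = 0.153). Pianp-207 was also the only member transcript called over both ages (-0.56 ± 0.12, adjusted p = 0.0142), against 15.5% of all transcripts and 9.76% called lower.

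The Npdc1 forms called lower were the non-coding Npdc1-208, Npdc1-205 and Npdc1-212. Npdc1-208 stood at 2.47, 1.69 and 3.34 RPKM in 12-month knockout and 4.19, 5.10 and 5.86 RPKM in 12-month wild type. Its fold change was -0.91 ± 0.24 (limma adjusted p = 0.0279), with -0.94 ± 0.26 for Npdc1-205 and -0.83 ± 0.23 for Npdc1-212. In the 12 fits that left out 1 library, the calls of Npdc1-208 and Npdc1-205 were each lost in 5. That of Npdc1-212 was lost in 4 (limma adjusted p up to 0.106, 0.108 and 0.133 in that order). The coding form Npdc1-207 had -0.73 ± 0.51 (adjusted p = 0.326). At P28 none of the 15 member transcripts was called, against 0.298% of all transcripts.

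**Figure D2:**
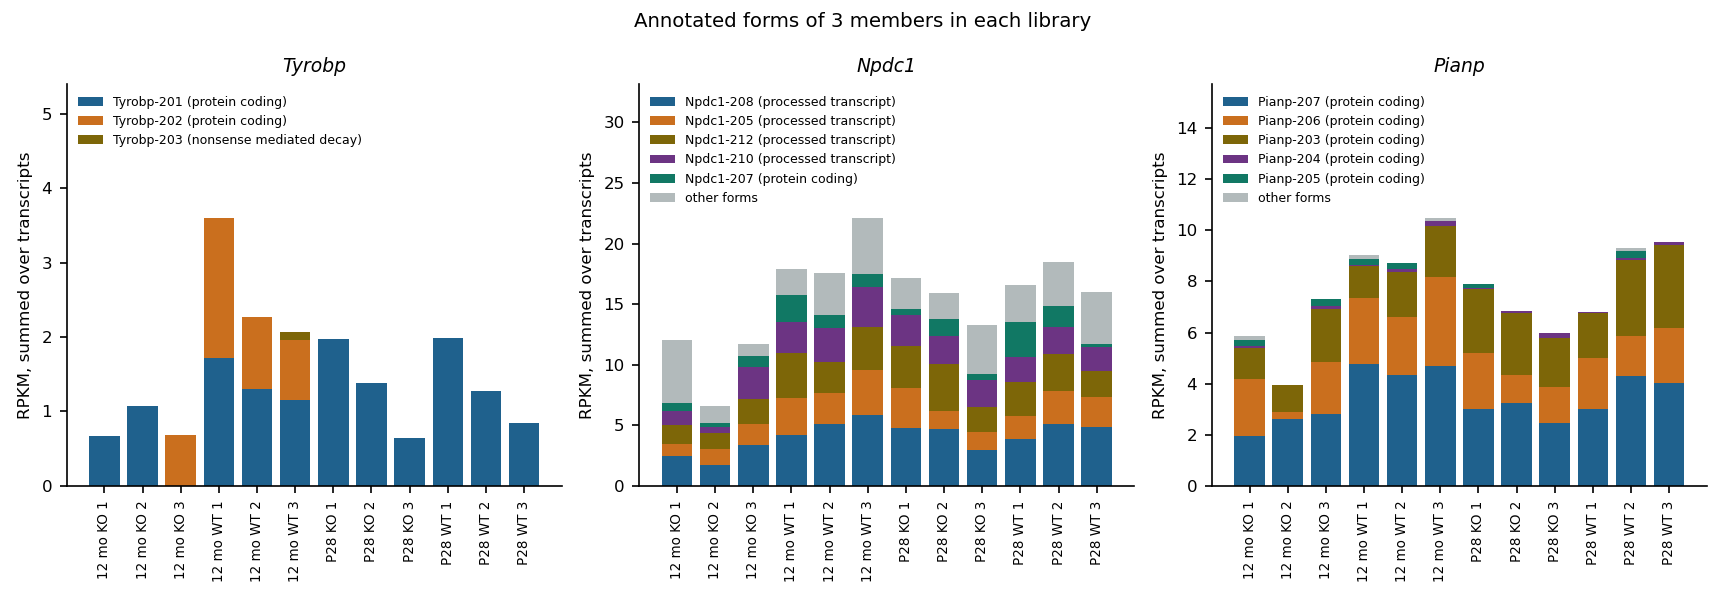
RPKM of the annotated forms of Tyrobp, Npdc1 and Pianp, stacked in each of the 12 libraries, with forms beyond the 5 shown of a gene in grey. Tyrobp-202 appears in the 3 12-month wild-type libraries and 1 12-month knockout library, while all 6 P28 libraries hold Tyrobp-201 alone.

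Another reported PILR ligand, the complement component C4b, fell in 12-month knockout. It stood at 6.60, 6.47 and 10.7 CPM in 12-month knockout and 22.3, 30.2 and 29.9 CPM in 12-month wild type. P28 values were 3.10, 8.74 and 2.12 CPM in knockout and 4.35, 2.21 and 3.07 CPM in wild type. The 12-month groups did not overlap, an order seen for 32.2% of all tested genes, and the knockout fold change was -1.69 ± 0.35 (limma adjusted p = 0.00427). With age it rose in wild type by 2.78 ± 0.35 (adjusted p = 0.000417), while the knockout groups differed by 0.80 (adjusted p = 0.102). The difference between these age changes, which is that between the genotype effects, was -1.97 ± 0.49 and did not pass (adjusted p = 0.0695).

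Of the C4b words, 48.3% are shared with its neighbour C4a, which stood at 0.757, 0.286 and 0.752 CPM in 12-month knockout and 2.05, 1.75 and 2.26 CPM in 12-month wild type. Of the 4 other reported ligands listed, 2 were tested. Colec12, a scavenger receptor, was not called at either age, with 7.22, 10.3 and 6.03 CPM in 12-month knockout and 9.38, 6.76 and 5.39 CPM in 12-month wild type. Clec4g was at most 0.0793 CPM, and Cd99 was not analysed here.

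**Figure D3:**
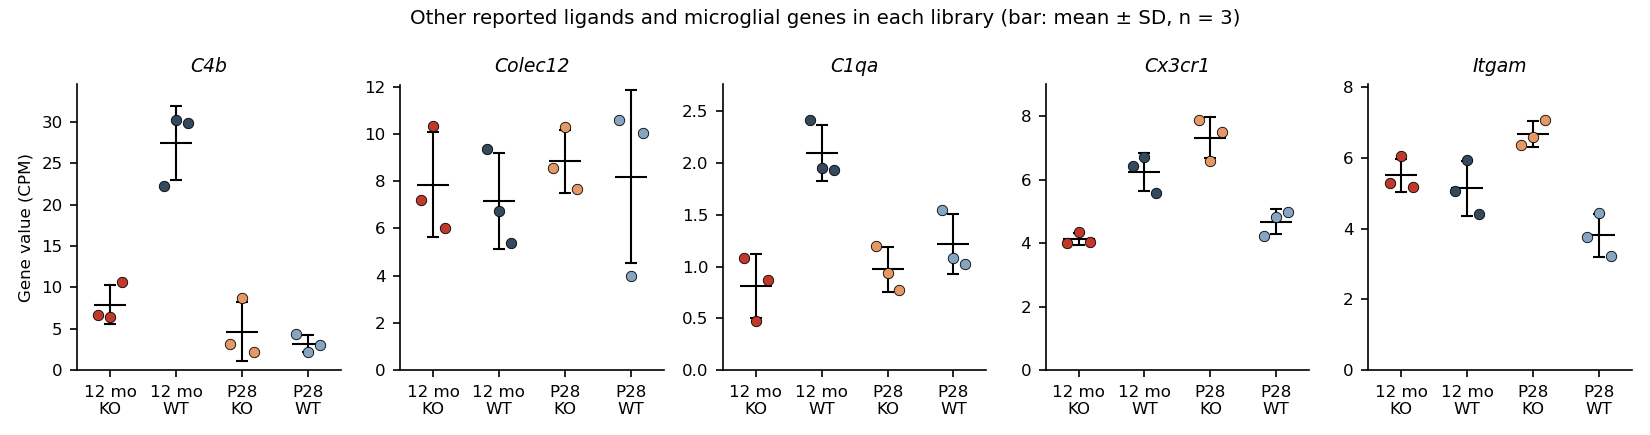
Gene values (CPM, linear axes) of the further ligands C4b and Colec12 and of the microglial genes C1qa, Cx3cr1 and Itgam in each library, with the mean ± SD of 3 as bars. C4b is highest in the 12-month wild-type libraries, at 22.3 to 30.2 CPM, and Cx3cr1 is lower in knockout at 12 months and higher in knockout at P28.

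Tyrobp, the adaptor through which PILRβ and TREM2 signal, fell in 12-month knockout. It stood at 0.383, 0.597 and 0.387 CPM in 12-month knockout and at 2.03, 1.26 and 1.17 CPM in 12-month wild type. The groups did not overlap, an order seen for 32.2% of all tested genes. The fold change was -0.76 ± 0.20 (limma adjusted p = 0.0111), which understates the change of so low a gene. Behind it were 6, 11 and 7 reads in knockout and 49, 30 and 33 reads in wild type. At P28 the groups overlapped almost fully, with 1.15, 0.820 and 0.371 CPM in knockout and 1.13, 0.735 and 0.474 CPM in wild type (-0.01 ± 0.20, adjusted p = 0.989). Tyrobp passed the filter through 5 libraries, of which 3 were 12-month wild type, so a gene lower in that group could have gone untested. The Tyrobp call is therefore no independent support for the 12-month difference.

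The longer Tyrobp form was seen at 12 months only. Tyrobp-202 holds all of Tyrobp-201 with 28 more bases at the 5′ end and 5 more at the 3′ end, so the split between them rests on reads that reach those ends. It stood at 0, 0 and 0.681 RPKM in 12-month knockout and 1.87, 0.959 and 0.799 RPKM in 12-month wild type, and was listed at 0 in all 6 P28 libraries. Tyrobp-202 reached 0.5 RPKM, the transcript filter, in 4 libraries, among them all those of 12-month wild type. Since it was tested through the group where it is high, its calls are no independent support for that difference. It was called lower in 12-month knockout (limma adjusted p = 0.0282), a call lost in 7 of 18 other fits (adjusted p up to 0.119): with a replicate block, with a sex term and without 12-month knockout library 1 or 2 or any 1 of the 12-month wild-type libraries. It was also called higher at 12 months than at P28 in wild type (adjusted p = 0.0478, against 0.82% of all transcripts and 0.603% called higher), a call lost in 13 of 17 other fits, 10 of them among the 12 that left out 1 library, with an adjusted p of up to 0.276. Tyrobp-201 stood at 0.673, 1.07 and 0 RPKM in 12-month knockout and 1.73, 1.31 and 1.16 RPKM in 12-month wild type (adjusted p = 0.135).

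Trem2, the microglial receptor that shares this adaptor, is listed on chromosome 17 and again on a patch sequence, with equal values in each library. Both rows together gave 1.08, 1.06 and 1.85 CPM in 12-month knockout and 3.18, 3.18 and 1.61 CPM in 12-month wild type. At P28 they gave 0.822, 1.33 and 0.458 CPM in knockout and 1.09, 1.34 and 0.909 CPM in wild type. The genotypes overlapped at both ages, while the 12-month wild-type libraries lay above the P28 wild-type ones, an order seen for 18.9% of all tested genes. The difference of means at 12 months was -1.33 CPM (two-sided exact permutation p = 0.2), and over both ages -0.787 CPM (exact permutation p = 0.06, adjusted 0.3).

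Trem2 reads were 14, 25 and 18 in 12-month knockout and 43, 40 and 54 in 12-month wild type, whose libraries were also deeper. Per M reads, the difference was -0.745 (exact permutation p = 0.1, the smallest possible). With the reads of both rows summed, a setting added after the data were seen, Trem2 passed the filter and was called (-0.44 ± 0.17, limma adjusted p = 0.0449). A form with a retained intron held 90.0% of the Trem2 reads, and reads in coding forms were found in 5 of 12 libraries.

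Syk, the kinase that binds the phosphorylated ITAM, was read at 5 to 27 reads a library and did not differ beyond its spread. It stood at 0.317, 0.414 and 0.458 CPM in 12-month knockout and 1.17, 0.508 and 0.219 CPM in 12-month wild type. At P28 it stood at 0.568, 0.376 and 0.458 CPM in knockout and 0.225, 0.446 and 0.354 CPM in wild type. The groups overlapped at both ages, with two-sided exact permutation p of 0.7 at 12 months and 0.2 at P28.

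Ptpn11, the broadly expressed phosphatase SHP-2, was the most abundant member and fell slightly in 12-month knockout. It stood at 105.1, 86.5 and 101.9 CPM in 12-month knockout and 124.3, 116.4 and 116.2 CPM in 12-month wild type. The groups did not overlap, an order seen for 32.2% of all tested genes, and the fold change was -0.28 ± 0.092 (limma adjusted p = 0.0278). At P28 values were 109.6, 123.3 and 103.5 CPM in knockout and 115.1, 119.3 and 116.0 CPM in wild type, with overlap (-0.06 ± 0.092, adjusted p = 0.738). The Ptpn11 call at 12 months was lost without 12-month knockout library 2 or without any of the 3 12-month wild-type libraries (adjusted p up to 0.128).

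Ptpn6, the haematopoietic phosphatase SHP-1, gave no call at either age. It stood at 0.527, 0.0350 and 0.255 CPM in 12-month knockout and 0.605, 1.30 and 0.265 CPM in 12-month wild type (-0.41 ± 0.49, limma adjusted p = 0.523). At P28 it stood at 0.388, 2.71 and 0.844 CPM in knockout and 0.302, 0.360 and 4.43 CPM in wild type (-0.01 ± 0.49, adjusted p = 0.997). The groups overlapped at both ages, and the fold change turned positive at both ages once a smooth trend in GC content and length was removed.

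The Ptpn6 gene value did not follow its reads. The library at 4.43 CPM held 13 reads and the one at 2.71 CPM held 10, while a P28 knockout library with 16 reads stood at 0.388 CPM. The gene value was 6.44, 4.51 and 2.48 times the read value in the 3 libraries by which Ptpn6 passed the filter, and 0.543 to 1.67 times in the other 9. Each of these 3 held about 1 read in a very short form: Ptpn6-205 of 134 bases in P28 wild-type library 3, and Ptpn6-207 of 198 bases in all 3. Ptpn6-205 lies on the minus strand at chr6:124725287-124727461 (GRCm38) and is shown to make its size plain beside 125-base paired reads, with the second of its 2 exons in capitals.
Ptpn6-205: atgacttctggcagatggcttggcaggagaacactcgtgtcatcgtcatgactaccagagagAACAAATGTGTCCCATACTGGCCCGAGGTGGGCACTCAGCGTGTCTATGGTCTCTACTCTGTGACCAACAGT
Across libraries, the highest ratio of gene to read value was 11.8 times the lowest for Ptpn6, 4.72 times for Pilra and 2.37 times for Trem2. The median over all tested genes was 1.20 times, and 5.80% of them exceeded 2 times. For Tyrobp it was 1.101 times. On reads, Ptpn6 had 5, 1 and 5 in 12-month knockout, 19, 12 and 10 in 12-month wild type, 16, 10 and 14 in P28 knockout and 11, 9 and 13 in P28 wild type. Per M reads the 12-month values were 0.316, 0.0549 and 0.291 in knockout and 0.811, 0.523 and 0.363 in wild type. Ptpn6 did not pass the filter on reads, so the difference between these values was not tested.

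**Figure D4:**
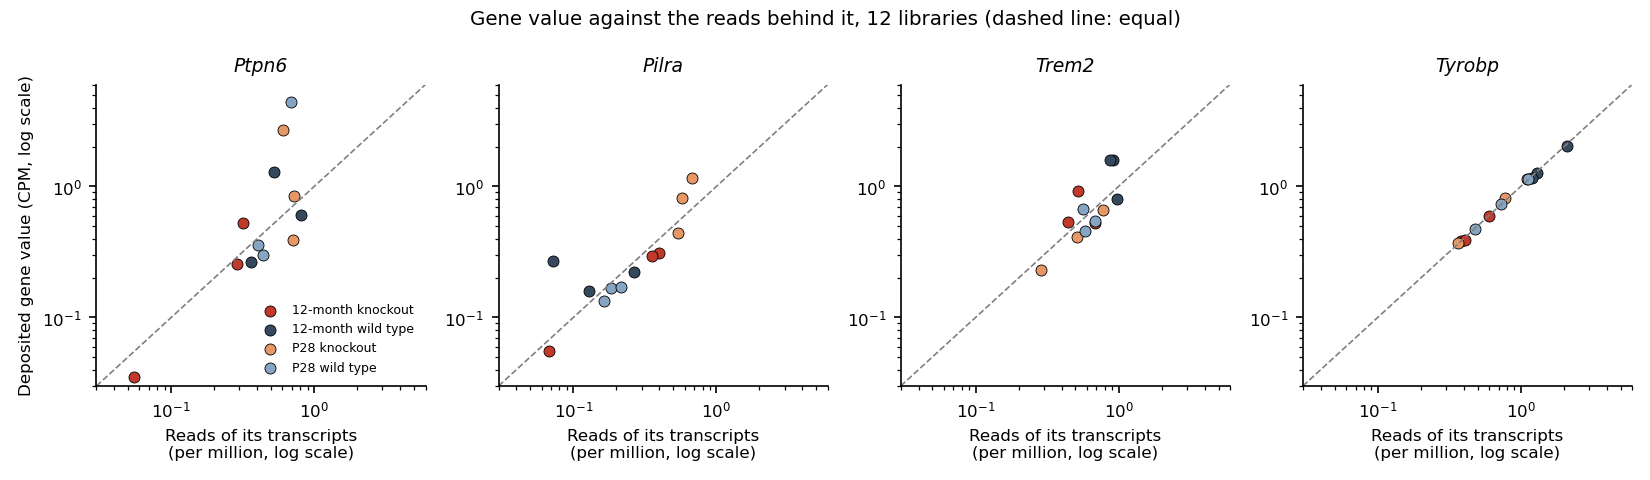
Deposited gene value (CPM) against the reads of a gene's transcripts per M reads (both axes logarithmic) for Ptpn6, Pilra, Trem2 (1 of 2 equal rows) and Tyrobp in the 12 libraries, with a dashed line of equality. Tyrobp lies on the line, and Ptpn6 in 3 libraries lies 2.48 to 6.44 times above it.

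Averaged over both ages, 2 of the 5 tested members were called lower in knockout, in a comparison that called 35.2% of all tested genes and 20.8% as lower. These were Npdc1 (-0.48 ± 0.14, limma adjusted p = 0.0200) and Tyrobp (-0.38 ± 0.14, adjusted p = 0.0497). The Tyrobp call over both ages was lost on leaving out 9 of the 12 libraries, each alone, and that of Npdc1 without 12-month wild-type library 3 (adjusted p = 0.0546). No member passed the test of the difference between the 2 ages, where 0.176% of all tested genes were called (29 genes, and 0 to 2501 in other fits). The nearest were Npdc1 (-0.78 ± 0.28, adjusted p = 0.119) and Tyrobp (-0.75 ± 0.28, adjusted p = 0.126), which had an unadjusted p under 0.05.

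Within wild type, none of the 5 tested members was called between 12 months and P28, where 5.4% of all tested genes were. Tyrobp came nearest, at 1.49 ± 0.474 CPM at 12 months and 0.780 ± 0.331 CPM at P28 (SD, n = 3 each), with a fold change of 0.48 ± 0.20 (limma adjusted p = 0.202). Within knockout, Npdc1 alone was called, lower at 12 months by -0.62 ± 0.20 (adjusted p = 0.0380), where 27.2% of all tested genes were called and 13.9% were lower. Its means were 10.4 ± 3.46 CPM at 12 months and 16.0 ± 1.69 CPM at P28 (SD, n = 3 each). Leaving out any 1 of 5 libraries (P28 knockout 1 or 2, 12-month knockout 2, 12-month wild type 1 or 2) ended that call, with an adjusted p of up to 0.126. Pilra in knockout also lay lower in every 12-month library than in every P28 library, an order seen for 18% of all tested genes, by 0.586 CPM on average (two-sided exact permutation p = 0.1, the smallest possible).

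GC content and transcript length were looked at together. The longest transcripts of Pianp, Npdc1, Ptpn6 and Tyrobp were more GC-rich than 92.4%, 87.9%, 81.3% and 80.8% of tested genes. Ptpn11 was more GC-rich than 61.0% and longer than 92.3% of them, while Npdc1 and Tyrobp were longer than 13.6% and 2.02%. A trend in both traits was removed at once, so the part of each was not tested. With a smooth trend in GC content and length removed from each library, no member was called at 12 months. Npdc1 then had -0.25 ± 0.15 (limma adjusted p = 0.294), Tyrobp -0.21 (adjusted p = 0.497), Ptpn11 -0.19 (adjusted p = 0.0956) and Pianp +0.17 (adjusted p = 0.579). With a sex term, Npdc1 had -1.04 (adjusted p = 0.0122) and Tyrobp -0.82 (adjusted p = 0.0321), while Ptpn11 was no longer called (adjusted p = 0.114). C4b was called under all 18 other settings, with -1.22 (adjusted p = 0.0310) after trend removal, and in all 12 fits that left out 1 library.

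**Figure D5:**
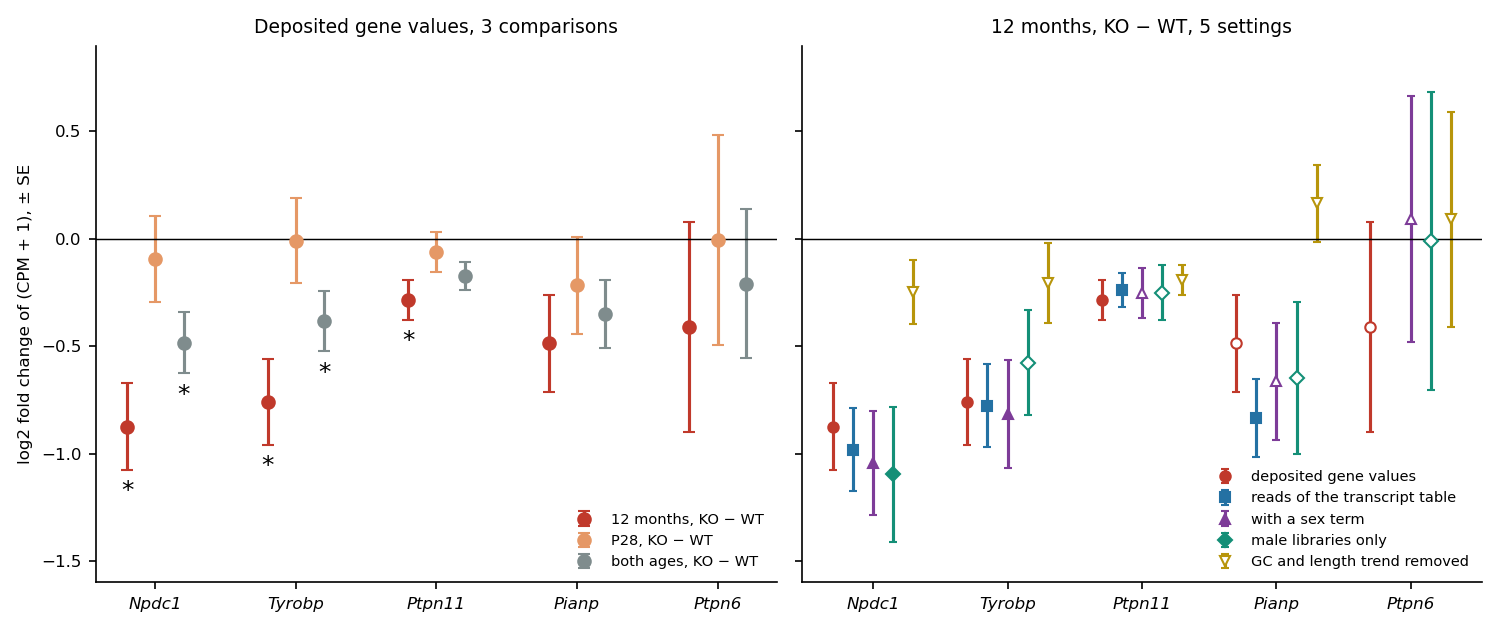
Fold changes on the log2(CPM + 1) scale ± SE of the 5 tested members, in 3 comparisons on the left (asterisks mark adjusted p under 0.05) and for 12 months under 5 settings on the right (filled symbols are called, and Ptpn6 did not pass the filter on reads). On the left, Npdc1, Tyrobp and Ptpn11 are called at 12 months, though the Ptpn11 fall (-0.28) is smaller than those of Pianp (-0.49) and Ptpn6 (-0.41). With the GC and length trend removed no symbol is filled.

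Genes around the members were read from lists chosen with earlier results of these data known. The 23 enzymes that build or trim mucin-type O-glycans and sialic acid make the sugars PILR binds. In 12-month knockout 4 of them were called higher and 7 lower, with a median fold change of 0.07. That comparison called 39.6% of all tested genes. The sialidase Neu1 had -0.72 (limma adjusted p = 0.00386) and the sialyltransferases St6galnac4 and St6galnac6 had -0.76 (adjusted p = 0.00391) and -0.57 (adjusted p = 0.00517). St3gal1, which caps core 1 O-glycans, had -0.53 (adjusted p = 0.00802), the sialic acid synthase Nans -0.64 (adjusted p = 0.0106) and the chain-starting enzyme Galnt7 +0.32 (adjusted p = 0.00964). None of the 23 was called at P28. Over both ages 1 was called higher and 5 lower, where 35.2% of all tested genes were called and 20.8% were lower. Among the 5 was Gne, the rate-limiting enzyme of sialic acid synthesis (-0.28, adjusted p = 0.0307). The Gne call held in 5 of the 12 fits that left out 1 library (adjusted p up to 0.0802).

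Between 12 months and P28 in knockout, the core 1 enzyme C1galt1 rose by 1.02 (limma adjusted p = 0.000657) and the sialidase Neu3 had -0.96 (adjusted p = 0.00105). Neu3 also fell in wild type (-0.80, adjusted p = 0.00713). St3gal1 and St3gal2 had -0.64 and -0.45 in knockout.

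Of 36 other ITAM receptors and signalling genes, 17 were tested. Of these, 1 was called higher and 3 lower in 12-month knockout (median -0.18), again beside 39.6% of all tested genes. The kinase Src had -1.10 (limma adjusted p = 0.0180), the Fc receptor Fcgr3 -0.50 (adjusted p = 0.0202), the lipid kinase Pik3cd -0.79 (adjusted p = 0.0226) and the ubiquitin ligase Cblb +0.44 (adjusted p = 0.0322). Each of these 4 calls was lost in 2 to 4 of the 12 fits that left out 1 library. None was called at P28. The DAP12-coupled receptor Siglech rose with age in wild type (0.70, adjusted p = 0.0147) and in knockout (0.75, adjusted p = 0.00383).

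Of 28 other ITIM receptors and phosphatase-pathway genes, 21 were tested. In 12-month knockout 3 were called higher and 2 lower (median -0.07), where 39.6% of all tested genes were called. The inhibitory lectin Clec12a rose by 0.74 (limma adjusted p = 0.00347), standing at 2.16, 2.29 and 1.54 CPM in 12-month knockout and 0.686, 0.850 and 0.823 CPM in 12-month wild type. Its 12-month wild-type values lay under the 1 CPM of the filter and its 12-month knockout values above it. The libraries where Clec12a is high thus counted towards its passing. The kinase Csk, which restrains Src-family kinases, had -1.04 (adjusted p = 0.00387), the receptor Sirpa -0.32 (adjusted p = 0.0255), its ligand Cd47 +0.37 (adjusted p = 0.0389) and the phosphatase Ptpn2 +0.27 (adjusted p = 0.0217). Leaving out 1 library ended the Cd47 call in 6 of 12 fits (adjusted p up to 0.146) and those of Sirpa and Ptpn2 in 4 of 12 each (up to 0.118 and 0.0878). Without the GC and length trend Csk had -0.34 (adjusted p = 0.118) and Src -0.42 (adjusted p = 0.266).

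Microglia, which carry Tyrobp and Trem2, were read from 18 markers of microglia and macrophages, 16 of them tested. The markers summed to between 89.1 and 115 CPM in the 12-month knockout libraries and between 95.7 and 117 CPM in wild-type ones of that age. In P28 knockout libraries the sum lay between 86.3 and 103 CPM and in P28 wild-type libraries between 72.5 and 90.1 CPM, so that the genotypes overlapped at both ages. In 12-month knockout none was called higher and 6 were called lower, where 39.6% of all tested genes were called and 23.5% were lower. Fold changes of the 16 ran from -1.11 to +0.42, with a median of -0.15. Markers of other cells were called lower in the same comparison: all 5 erythrocyte markers, 3 of 7 endothelial markers and 3 of the 8 tested pigment epithelium markers. So were 7 of 10 rod markers and 2 of 8 Mueller glia markers. Of 12 inner retina markers, 2 were called lower and 3 higher, and no lens marker was called. The erythrocyte markers summed to between 4.33 and 9.94 CPM in 12-month knockout and between 19.2 and 34.1 CPM in 12-month wild type. At P28, 3 of the 5 were called lower too, where 1.49% of all tested genes were called. Of the 12 fits that left out 1 library, these P28 calls held in 10 for Hbb-bt, 7 for Hba-a1 and 2 for Hba-a2. C1qa stood at 1.08, 0.474 and 0.874 CPM in 12-month knockout and 2.41, 1.96 and 1.93 CPM in 12-month wild type (-0.79, limma adjusted p = 0.00439), C1qb had -1.11, C1qc -0.81, Cd68 -0.56, Csf1r -0.58 and Cx3cr1 -0.50. After trend removal C1qa had -0.05 (adjusted p = 0.854), C1qb -0.43 (adjusted p = 0.0568) and Cx3cr1 -0.37 (adjusted p = 0.0671).

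At P28 only Itgam of these markers was called, higher in knockout by 0.68 (limma adjusted p = 0.0397). That call was lost in 10 of the 12 fits that left out 1 library (adjusted p up to 0.156) and in 6 of 18 other settings. Cx3cr1, the fractalkine receptor, was the only gene of the lists around PILR signalling and myeloid cells called for the difference between ages (-1.05, limma adjusted p = 0.0478). It was lost in 9 of the 12 fits that left out 1 library (adjusted p up to 0.165) and in 10 of 17 other settings. It stood at 4.00, 4.33 and 4.03 CPM in 12-month knockout, 6.44, 6.71 and 5.57 CPM in 12-month wild type, 7.87, 6.60 and 7.50 CPM in P28 knockout and 4.23, 4.83 and 4.96 CPM in P28 wild type. Knockout lay below wild type in every library at 12 months, as for 32.2% of all tested genes. At P28 it lay above wild type in every library, as for 10.5% of them. Markers of monocytes, neutrophils and lymphocytes summed to 3.80 to 9.95 CPM, 3 of 16 were tested and none was called at 12 months. The part of microglial content in the Tyrobp and Trem2 values was not tested.

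Genes next to the receptors were not called at P28. In 12-month knockout, 39.6% of all tested genes were called and 23.5% were lower. Of the nearest 4 tested genes on each side, on chromosome 5, 4 were called lower there and 1 higher. Of these, Tsc22d4 (-0.93, limma adjusted p = 0.0104), Nyap1 (-0.64, adjusted p = 0.0120), Mepce (-0.43, adjusted p = 0.0241) and Zscan21 (-0.35, adjusted p = 0.0161) were lower and Zkscan1 (+0.32, adjusted p = 0.0467) was higher. Zcwpw1, which overlaps Pilra, had +0.21 (adjusted p = 0.235).

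By Pearson r over the 12 libraries on log2(CPM + 1), which share group differences and depth, genes among those most like Npdc1 were Agap3 (0.975) and Slc25a22 (0.972). For Ptpn11 they were Hgs, Pigt and Sec14l1 at 0.980 to 0.983, for Pianp Trim26, Slc6a7 and Slc1a6 at 0.919 to 0.935, for Tyrobp Cryl1, Ttc7 and S100a13 at 0.914 to 0.944, and for Ptpn6 Htra3, Plp2 and Pabpc1l at 0.841 to 0.861. Among the members, Npdc1 and Ptpn11 were the most alike (0.896), followed by Npdc1 with Pianp (0.795), while Tyrobp reached 0.511 with Npdc1.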

How the data were processed

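Whole-retina RNA was sequenced as 125-base paired reads from stranded poly(A) libraries, per the labels' protocols. Per the submitters' processing notes, the authors quantified reads with kallisto 0.45.0 on Ensembl 102, passed the estimates through tximport 1.30.0 to the gene level, and used edgeR 4.0.3 for normalization. A genome build in those notes is human, but 51903 of 53028 deposited gene rows were found in the mouse GENCODE M21 annotation (GRCm38). The deposited gene table holds a signal, CPM on a TMM effective library, with column sums of 0.930 to 1.10 M (M for 1000000). For transcripts the deposited unit is RPKM.

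RPKM times length gave reads per M, and the commonest low value was taken as 1 read. Intervals and the floor of 3 reads cover counting error only. Genes at 1 CPM or more in 3 or more libraries (16486) and transcripts at 0.5 RPKM or more in as many (46931) were tested on log2(CPM + 1) and log2(RPKM + 0.5) with limma 3.58.1 in R 4.3.3, as 4 group means with an eBayes trend and Benjamini-Hochberg adjustment at 0.05 over all features tested. Pilra, Syk and Trem2 were compared by two-sided exact permutation over libraries. The fits were tested on simulated data. Words are stretches of 31 bases of transcripts. Promoter windows came from RefSeq, and 9 of the 10 genes had at least 1.

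The members, gene lists and tests were chosen with earlier results of these data known. Named are all members, member transcripts, up to 6 called genes a list by smallest p (4 between ages), the 3 most alike genes (1 gene is not reported here) and the nearest 4 tested genes on each side of the receptors. Alternatives changed the pseudocount, filter, normalization, gene value, covariates, libraries and model. Those added later used reads, voom, summed Trem2 rows and male libraries. Tables and figures used Python 3.11.15, numpy 2.4.6, pandas 2.3.3, scipy 1.17.1 and matplotlib 3.10.9. Raw reads were not analysed here.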

Additional observations from a re-analysis of the deposited data

How the results depend on the processing

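At 12 months, fits that left out 1 library called 1 to 4 members. With the GC and length trend removed 0 were called, and on reads with both Trem2 rows summed 5. Male libraries alone left only library 3 of 12-month wild type and only library 1 of P28 knockout. Calls of that setting are therefore not given, and its fold changes rest on 1 library in those groups. Tyrobp was lost without 12-month wild-type library 1 (adjusted p = 0.0547). Over both ages 1 member was called with a pseudocount of 0.1 or 5, no filter, trend removal or a sex term. The same count came with quantile, median-of-ratios or recomputed TMM normalization. With summed RPKM, reads, voom or reads with Trem2 summed 4 were called, and leaving out 1 library gave 0 to 3. Between ages in knockout 0 were called with quantile normalization, trend removal or only the groups compared, and 0 to 2 without 1 library. The difference between ages gave 0 to 1, and P28 and the age comparison in wild type gave 0 without any library. Member transcripts called at 12 months were 3 with quantile normalization, a replicate block or a sex term and 0 to 7 without 1 library. Over both ages they were 2 with a pseudocount of 2 or a sex term, and 1 to 4 without 1 library. Between ages in wild type they were 0 with a pseudocount of 0.1, quantile normalization or a sex term, and 0 to 1 without 1 library. In knockout they ranged from 0 to 2.

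Signs turned for members that were not called. At P28, Ptpn6 had 0.21 with a pseudocount of 0.1, 0.037 with quantile normalization and 0.16 after trend removal (-0.41 to 0.67 without 1 library). Npdc1 had 0.14 after trend removal, 0.075 with a sex term and 0.021 in male libraries. Tyrobp had 0.020 with quantile normalization, 0.23 after trend removal, 0.047 with a sex term and 0.29 in male libraries (-0.16 to 0.17 without 1 library). At 12 months, Ptpn6 had 0.090 after trend removal and 0.094 with a sex term, and Pianp 0.17 after trend removal. Over both ages, trend removal gave 0.12 for Ptpn6, 0.071 for Pianp and 0.012 for Tyrobp, and leaving out 1 library gave -0.41 to 0.13 for Ptpn6. For the difference between ages, Ptpn6 had 0.61 with a sex term and 0.61 in male libraries, and trend removal gave 0.19 for Pianp and 0.026 for Ptpn11. Between ages in wild type, Pianp had 0.13 with summed RPKM, 0.038 with a sex term, 0.34 on reads, 0.37 with voom, 0.34 with Trem2 summed and 0.021 in male libraries. Ptpn11 there had -0.025 after trend removal, -0.019 with summed RPKM, -0.0050 with a sex term, -0.017 on reads, -0.018 with voom, -0.017 with Trem2 summed and -0.0072 in male libraries. Without 1 library it had -0.0062 to 0.042, and Ptpn6 -0.70 to 0.33. In knockout Ptpn11 had 0.0011 after trend removal. The cause was not tested.

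Of the receptor genes, Pilra alone was tested. Its difference of means at 12 months was -0.0022 on log2(CPM + 1), and -0.0418 to 0.0848 CPM without 1 library. Over both ages it was 0.140 with summed RPKM (exact permutation p = 0.04) and 0.263 on reads (p = 0.02), with 0.238 to 0.417 CPM (p = 0.01 to 0.135) without 1 library, and at P28 0.473 to 0.831 CPM.

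Whether replicate numbers pair the libraries was not settled, and these few libraries cannot decide it. Same-numbered deviations correlated at 0.0989, 0.308 and 0.156 at 12 months and 0.0879, -0.107 and 0.0476 at P28. Differently numbered ones ran from -0.308 to 0.131 at 12 months and from -0.136 to 0.106 at P28. A replicate block kept the 12-month calls of Npdc1 (adjusted p = 0.00442), Tyrobp (0.00701) and Ptpn11 (0.0236), and over both ages added Ptpn11 (0.0449). It could not be fitted to the age comparisons. A fit of only the groups compared gives no separate value over both ages or for the difference. Genes called in all ranged from 0 to 1404 at P28 (246 as reported, 0 with only the groups compared, 3533 at an unadjusted p under 0.05) from 1825 to 7761 at 12 months, and from 0 with a sex term to 2501 without P28 knockout library 3 for the difference between ages (29 as reported, 1221 with a replicate block, 1 to 2501 without 1 library). Depth limits the myeloid members most: Tyrobp, Trem2, Syk, Ptpn6 and Pilra rest on at most 54 reads a library.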
